A study of Mus musculus with 6 samples.

Results

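Klk6 and 8 other genes whose levels differ between subtypes of mature oligodendrocytes, or that were lower together with Klk6, were followed in brain tissue of MSA Tg and WT mice. The 8 others are Serpinb1a, Il33, Itgb4, Anxa5, Hapln2, Apod, Ptgds and Car2. All array probes carrying one of these gene names were taken, which gave 13 of 56605 probes and 9 of 37008 genes. The genes were picked with the difference between the genotypes in view, so their differences are described here without a test. There were 3 MSA Tg samples, labelled MSA Transgenic, and 3 WT samples, labelled wild type. All came from a brainstem and cerebellum dissection at 16 weeks of age, from mice whose strain label is the same for both genotypes, C57BL/6, 129 and C3H. The labels name neither the transgene nor its promoter, do not spell out MSA, and do not say whether a sample is 1 animal. Total RNA was labelled with Cy3 and hybridised to single-colour Agilent mouse arrays, 1 array per sample.

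Mature oligodendrocytes wrap axons in myelin and are not all alike. Single-cell studies of mouse divide them into subtypes by graded expression of genes outside the common myelin programme. Klk6, Anxa5 and Hapln2 are known as markers of a subtype rich in the white matter of the spinal cord, while Il33, Ptgds, Apod and Car2 are known to be high in other mature subtypes. Several of these genes are also made elsewhere: Ptgds and Apod by meningeal cells and fibroblasts, Apod by Schwann cells, Anxa5 by many cell types. The arrays read whole tissue, so fewer cells of a type and less RNA per cell cannot be told apart.

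The gene levels below rest on these 60-base probes, of which the first 30 bases are shown for the 3 genes with the lowest values in MSA Tg tissue relative to WT, so that the transcript read by each can be identified. Positions are those of the whole probe in the deposited annotation (mm9), and no base is marked. The second Il33 probe spans 2268 bases of the genome.
Klk6, chr7:51086977-51087036, plus strand: tcagatggatccaaaacatcctcagaaaca
Serpinb1a, chr13:32934693-32934752, minus strand: attttcttcattcggcacaatcccacatct
Il33, brighter probe, chr19:30035101-30035160, plus strand: gtgaatctgtacgatatctttaaagtagta
Il33, second probe, chr19:30024240-30026507, plus strand: cgccttgcaaaataagaagatcccaacaga

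The 250 bases upstream of each RefSeq start site of Klk6 and of Hapln2, both known as markers of the same subtype, are given on GRCm38.p6. Capitals mark matches on either strand to ACAATG or ACAAAG, the core letters bound by Sox proteins such as Sox10, and to CTGGCAC, a form of the motif of Myrf. Both factors are known to drive oligodendrocyte genes. The 3 motifs do not overlap in these windows.
Klk6, first start site, chr7:43824294-43824543, plus strand: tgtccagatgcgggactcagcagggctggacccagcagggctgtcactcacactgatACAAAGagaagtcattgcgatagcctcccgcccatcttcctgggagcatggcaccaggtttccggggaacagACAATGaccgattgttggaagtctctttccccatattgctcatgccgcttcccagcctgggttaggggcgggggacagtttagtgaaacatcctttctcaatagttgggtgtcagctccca
Klk6, second start site, chr7:43825200-43825449, plus strand: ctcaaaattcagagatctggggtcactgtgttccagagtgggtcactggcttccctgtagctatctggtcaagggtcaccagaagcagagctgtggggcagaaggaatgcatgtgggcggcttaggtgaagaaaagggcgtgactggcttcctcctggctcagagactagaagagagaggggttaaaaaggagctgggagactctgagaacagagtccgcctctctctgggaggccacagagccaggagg
Hapln2, chr3:88027512-88027761, minus strand: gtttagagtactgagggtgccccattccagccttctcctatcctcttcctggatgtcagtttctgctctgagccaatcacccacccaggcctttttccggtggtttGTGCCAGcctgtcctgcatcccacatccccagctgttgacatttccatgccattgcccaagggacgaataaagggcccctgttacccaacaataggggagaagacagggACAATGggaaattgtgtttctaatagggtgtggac

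The first Klk6 window held 1 ACAATG and 1 ACAAAG, and the second held none of the 3 motifs. The Hapln2 window held 1 ACAATG and 1 CTGGCAC. Among 32851 upstream windows of this length, 10.7% held ACAATG, 16.5% held ACAAAG and 4.19% held CTGGCAC. RefSeq entries were matched for 6 of the 9 genes, with 8 start sites in all. Apod had 1 ACAAAG, and the windows of Il33, Anxa5 and Ptgds had none of the 3. No entry was matched for Serpinb1a, Itgb4 or Car2. A match describes these letters and is not evidence of binding.

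A level here is a probe's intensity as a multiple of the 75th percentile of its array, so levels compare samples for 1 probe and not probes with each other. All 9 genes were well above background on all 6 arrays. That percentile was 609.2, 591.9 and 603.6 intensity units on the MSA Tg arrays, against 405.7, 562.4 and 535.0 on the WT arrays. WT replicate 1, the array with 405.7, was alone on its slide. Across tested genes, the other arrays had a Pearson r of 0.991 to 0.996 with one another. WT replicate 1 had a lower r with them, 0.974 to 0.978. Differences without that array, between 3 MSA Tg and 2 WT arrays of 1 slide, are therefore given beside the main ones. Defining genes of cerebellum (Pcp2, Gabra6) and of brainstem (Tph2, Hoxb3) were well above background on all arrays. The forebrain genes Drd1 and Tbr1 were as well.

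The 9 genes did not move as one group. Klk6, Serpinb1a, Il33, Itgb4 and Car2 were lower in every MSA Tg sample than in every WT sample, by 1.56-fold to 4.18-fold. Apod and Ptgds were higher in every MSA Tg sample, by 1.26-fold each, and the samples overlapped for Anxa5 and Hapln2. Of all 24932 genes tested, 7.5% had every MSA Tg sample below every WT sample and 7.4% the reverse. In the fit over all genes (limma, Benjamini-Hochberg adjusted p under 0.05), 11 genes were called, 0.0441% of those tested, of which 2 (0.00802%) were lower and 9 (0.0361%) higher in MSA Tg. Klk6 was 1 of these 2 and was the single member called. It was called without WT replicate 1 too, but not without any 1 of the other 5 arrays, and 0 to 7 genes in all were called when 1 array was left out. Since the genes were chosen on this contrast, nothing is read from these counts.

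**Figure D1:**
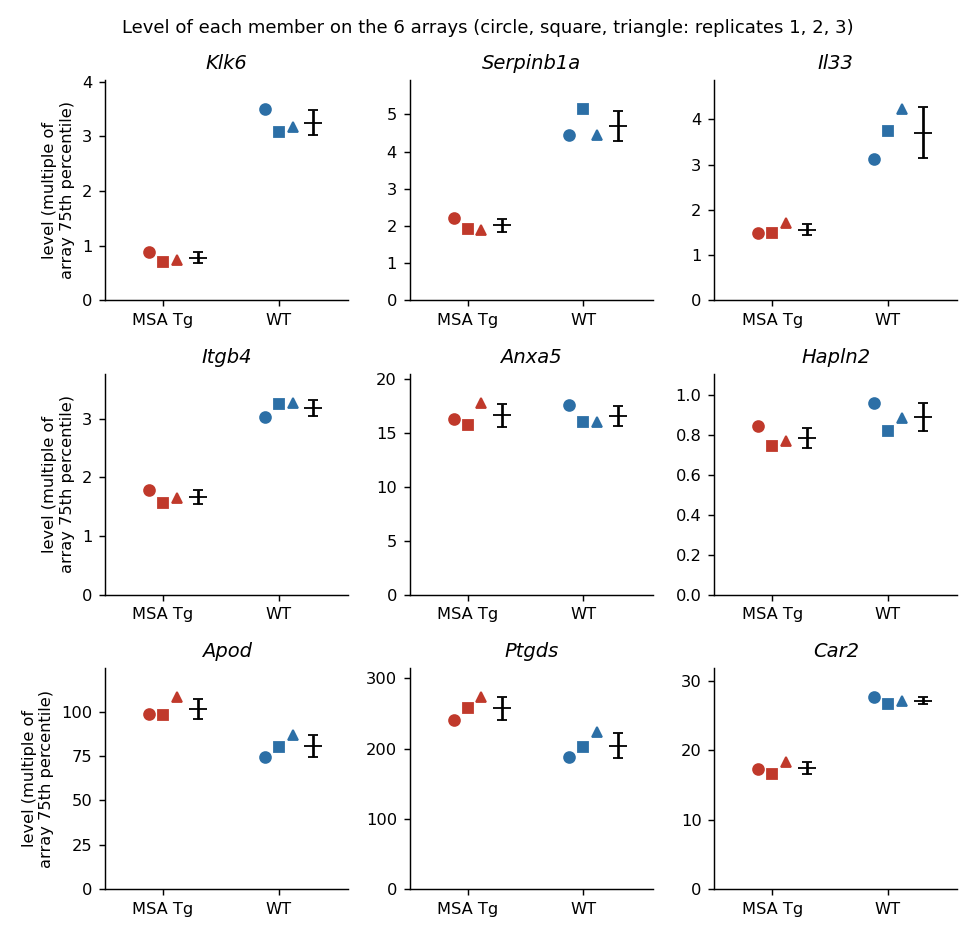
Level of each gene (multiple of the array's 75th percentile, linear axis from 0) on the 3 MSA Tg arrays (red) and the 3 WT arrays (blue), with the mean and SD in black. The groups lie apart for 7 genes, lower in MSA Tg for 5 and higher for 2, and overlap for Anxa5 and Hapln2.

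Klk6 is a secreted serine protease of the kallikrein family, made in the central nervous system mainly by oligodendrocytes and able to cleave myelin proteins and protease-activated receptors. Its level was 0.894, 0.706 and 0.742 in the MSA Tg samples, against 3.51, 3.08 and 3.17 in the WT samples. The 3 samples of each genotype lay close together and the genotypes were far apart. The means were 0.781 ± 0.0999 in MSA Tg and 3.25 ± 0.227 in WT (SD, n = 3 each), a log2 difference of -2.06 ± 0.12 (SE), or 4.18-fold lower. The highest MSA Tg sample lay 1.78 log2 units below the lowest WT sample. Unscaled intensities were 544.6, 417.6 and 448.1 in MSA Tg against 1424, 1732 and 1698 in WT, so the order did not come from the scaling. Without WT replicate 1 the log2 difference was -2.01. Klk6 ranked 15 from the lowest difference among the 24932 genes.

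The other kallikreins, which lie in a cluster with Klk6 on chromosome 7, gave no call. Of 16 kallikreins and protease-activated receptors on the array, 7 were well enough above background to be tested and 0 were called in either direction. Their median log2 difference was 0.09, against -0.00049 for all genes. The 2 with the smallest p were Klk8, a kallikrein of neurons and keratinocytes, at 0.37 ± 0.15 (adjusted p = 0.817), and F2rl2, which encodes protease-activated receptor 3, at -0.59 ± 0.40 (adjusted p = 0.817, limma). F2r, the thrombin receptor that Klk6 is known to activate in neural cells, stood at 0.09. The nearest tested genes to Klk6 on the chromosome were Klk8, 29.5 kb away, and Klk4, 54.0 kb away on the other side, at 0.19 ± 0.15. All 6 neighbours of Klk6 were kallikrein genes with values above 0, between 0.04 and 0.37, and overlapping samples. Some were dim, such as Klk9, with mean log2 levels of -4.35 in MSA Tg and -4.38 in WT.

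Serpinb1a is an intracellular inhibitor of serine proteases of neutrophil granules. Its level was 2.23, 1.91 and 1.91 in the MSA Tg samples, against 4.45, 5.16 and 4.45 in the WT samples. Every MSA Tg sample lay below every WT sample, with no value between the groups. The log2 difference was -1.22 ± 0.11, 2.33-fold lower, and -1.25 without WT replicate 1. The mean levels were 2.01 ± 0.184 in MSA Tg and 4.69 ± 0.407 in WT (SD, n = 3 each).

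A close relative next to it, Serpinb1c, had a similar difference. It was the nearest tested gene on the side of higher coordinates, 42.4 kb from Serpinb1a on chromosome 13. Its brighter probe was at 0.251, 0.247 and 0.197 in MSA Tg, against 0.618, 0.487 and 0.441 in WT. That is a log2 difference of -1.15 ± 0.17 (adjusted p = 0.179, limma), so it was not called, although the samples of the 2 genotypes did not overlap. A second Serpinb1c probe stood at -0.79 ± 0.22 and also without overlap. For Serpinb1b, the third relative, the difference was -0.46 ± 0.26 and the samples overlapped. Whether these probes also read Serpinb1a RNA was not tested. The first 30 bases of the brighter Serpinb1c probe, which spans 1850 bases, are shown for comparison with the Serpinb1a probe.
Serpinb1c, brighter probe, chr13:32976212-32978061, minus strand: ggaaggagataaaccagtgggtcaaaggtc

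Of 13 tested relatives and target proteases of Serpinb1a, 0 were called, 7 had a lower and 6 a higher mean in MSA Tg, and the median log2 difference was -0.03. Next to Serpinb1c, the smallest p belonged to Serpina3n, a secreted serpin of reactive glia, at 0.83 ± 0.20 (adjusted p = 0.520, limma). Wrnip1, the neighbour of Serpinb1a on the other side, stood at -0.10 ± 0.11.

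Il33 encodes a nuclear alarmin of the interleukin-1 family that is released on cell damage and is made in the brain by oligodendrocytes and astrocytes. Its brighter probe stood at 1.49, 1.49 and 1.72 in the MSA Tg samples, against 3.12, 3.75 and 4.24 in the WT samples. The second probe, at another place in the transcript, stood at 0.0747, 0.0618 and 0.0767 in MSA Tg, against 0.232, 0.170 and 0.212 in WT. Both probes separated the genotypes in the same direction. The log2 differences were -1.23 ± 0.14 for the brighter probe, 2.35-fold lower, and -1.52 ± 0.15 for the second, 2.87-fold lower. Without WT replicate 1 they were -1.35 and -1.42.

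The genes through which interleukin-33 signals showed smaller differences. Of 8 tested genes of the pathway, 0 were called, and the median log2 difference was -0.04. The smallest p values belonged to Il1rap, the shared co-receptor of the family, at -0.27 ± 0.11, and Il18, a related cytokine, at -0.15 ± 0.07 (adjusted p = 0.817 for both, limma). In both, every MSA Tg sample lay below every WT sample. Il1rl1, the receptor itself, stood at -0.25 ± 0.32 with overlapping samples. It was dim, with mean log2 levels of -4.99 in MSA Tg and -4.75 in WT. The neighbours of Il33 on chromosome 19, Ranbp6 and Uhrf2, stood at 0.08 ± 0.11 and -0.11 ± 0.13.

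Itgb4 encodes integrin beta 4, which pairs with integrin alpha 6 to bind laminin and anchors epithelial cells through hemidesmosomes. The tested probe stood at 1.79, 1.56 and 1.65 in the MSA Tg samples, against 3.03, 3.25 and 3.27 in the WT samples. The spread within each genotype was small beside the distance between them. The log2 difference was -0.94 ± 0.09, 1.91-fold lower, and -0.97 without WT replicate 1. The other 2 Itgb4 probes were not tested. One was well above background on 0 of 6 arrays and the other on 0 MSA Tg arrays and 1 WT array, so no difference is given for them.

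The partners of integrin beta 4 had small differences in both directions. Of 15 tested integrins, linkers and laminins, 0 were called, 6 had a lower and 9 a higher mean in MSA Tg, and the median was 0.03. Itga6, the alpha subunit, stood at 0.04 ± 0.11, and Plec, which links the integrin to intermediate filaments, at 0.08 ± 0.10. The smallest p values were those of Lamc1, a laminin chain, at 0.30 ± 0.10 (adjusted p = 0.752), and Cd151, a tetraspanin bound to laminin-binding integrins, at 0.22 ± 0.11 (adjusted p = 0.817, limma). Beside Itgb4 on chromosome 11, Galk1, 0.567 kb away by probe position, stood at 0.07 ± 0.13. B230344G16Rik, on the other side at 20.0 kb, stood at -0.40 ± 0.11, with every MSA Tg sample below every WT sample.

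Car2, carbonic anhydrase II, interconverts carbon dioxide and bicarbonate and is a long-used marker of oligodendrocytes. Its level was 17.3, 16.6 and 18.3 in the MSA Tg samples, against 27.7, 26.6 and 27.1 in the WT samples. The WT samples lay close together, at 27.1 ± 0.519 (SD, n = 3), and all 3 MSA Tg samples lay below them, at 17.4 ± 0.841. The log2 difference was -0.64 ± 0.08, 1.56-fold lower, and -0.63 without WT replicate 1. Among 12 other carbonic anhydrases tested, 0 were called, 8 had a lower and 4 a higher mean in MSA Tg, and the median was -0.12. Car4, a membrane-bound form of capillaries and glia, stood at -0.36 ± 0.12 (adjusted p = 0.746), and Car9, a form induced by low oxygen, at -0.37 ± 0.18 (adjusted p = 0.817, limma). Car3, the nearest gene to Car2, stood at -0.34 ± 0.36, and Sirpb1a on the other side at 0.52 ± 0.33.

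Hapln2 and Anxa5, known as markers of the same subtype as Klk6, differed little. Hapln2, a link protein that holds hyaluronan and versican together at nodes of Ranvier, stood at 0.844, 0.743 and 0.768 in the MSA Tg samples, against 0.961, 0.819 and 0.885 in the WT samples. The highest MSA Tg sample lay above the lowest WT sample. The log2 difference was -0.18 ± 0.10. Anxa5, a calcium-dependent protein that binds phosphatidylserine, stood at 16.4, 15.8 and 17.8 in MSA Tg, against 17.7, 16.1 and 16.0 in WT, with a log2 difference of 0.01 ± 0.09. The samples of the genotypes were interleaved. Hopx, a further marker of that subtype, stood at -0.17 with overlapping samples.

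The relatives of Hapln2 and Anxa5 were also without calls. Of 11 tested link proteins, lecticans and axoglial proteins, 5 had a lower and 6 a higher mean in MSA Tg, with a median of 0.01. Hapln3 stood at 0.31 ± 0.19 and Tnr, tenascin-R, at -0.21 ± 0.15 (adjusted p = 0.817 for both, limma). Of 9 tested annexins, 3 had a lower and 6 a higher mean, with a median of 0.04. Anxa3 stood at 0.35 ± 0.12 (adjusted p = 0.807) and Anxa9 at 0.28 ± 0.17 (adjusted p = 0.817). The chromosomal neighbours Bcan and Gpatch4 of Hapln2 stood at -0.08 ± 0.11 and 0.04 ± 0.15. Those of Anxa5, Qrfpr and 1810062G17Rik, stood at 0.06 ± 0.37 and -0.0026 ± 0.20.

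Apod and Ptgds, both lipocalins, went the other way from Klk6. Apolipoprotein D carries small lipids such as arachidonic acid and is induced in ageing and injured nervous tissue. Each of its 2 probes had every MSA Tg sample above every WT sample. The brighter one, printed 10 times on each array, stood at 98.9, 98.1 and 108.5 in MSA Tg, against 74.6, 80.4 and 86.9 in WT. Its log2 difference was 0.34 ± 0.10, 1.26-fold higher, and 0.28 without WT replicate 1. The second probe stood at 23.3, 23.3 and 23.1 in MSA Tg against 22.1, 18.5 and 19.5 in WT, a log2 difference of 0.22 ± 0.10. The gap between the genotypes was narrow for both, 0.18 and 0.06 log2 units.

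Ptgds makes prostaglandin D2 and is abundant in meninges, choroid plexus and oligodendrocytes. Its level was 240.3, 258.5 and 273.6 in the MSA Tg samples, against 187.4, 201.8 and 224.0 in the WT samples. The log2 difference was 0.33 ± 0.10, 1.26-fold higher, and 0.27 without WT replicate 1. The lowest MSA Tg sample lay 0.10 log2 units above the highest WT sample. Both genes' repeated spots varied within an array with a coefficient of variation of 1.88% to 6.06%.

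Because meningeal cells, choroid plexus and Schwann cells also make these lipocalins, the summed levels of their markers are given beside them. The 8 markers of meninges and fibroblasts summed to 18.3 to 21.3 in MSA Tg and 18.1 to 19.9 in WT, and the 6 of choroid plexus to 177.0 to 203.0 in MSA Tg and 141.9 to 211.7 in WT. The 6 tested of 8 Schwann cell markers summed to 3.33 to 4.07 in MSA Tg and 3.24 to 4.07 in WT, with Pmp2 and Scn7a too near background to be tested. All 3 sums overlapped between the genotypes. The part of these cells in the Apod and Ptgds values was not tested.

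Around Apod, 9 lipocalins, apolipoproteins and lipid receptors were tested and 0 were called, with 2 lower and 7 higher means in MSA Tg and a median of 0.12. Lcn2, a lipocalin of acute inflammation, stood at 0.79 ± 0.17 (adjusted p = 0.391, limma). Around Ptgds, 10 genes of prostaglandin synthesis and breakdown were tested and 0 were called, with 5 means on either side and a median of 0.01. Hpgds, the haematopoietic form of prostaglandin D synthase made by microglia, stood at 0.93 ± 0.13 (adjusted p = 0.175), and Tbxas1, thromboxane synthase, at 0.35 ± 0.09 (adjusted p = 0.575, limma). The groups did not overlap for Lcn2, Hpgds or Tbxas1. Hpgds was dim, with mean log2 levels of -4.11 in MSA Tg and -5.03 in WT. The neighbours of Apod, Ppp1r2 and Gm15743, stood at -0.06 ± 0.11 and -0.05 ± 0.20, and those of Ptgds, Paxx and Gm35287, at 0.13 ± 0.12 and 0.07 ± 0.18.

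**Figure D2:**
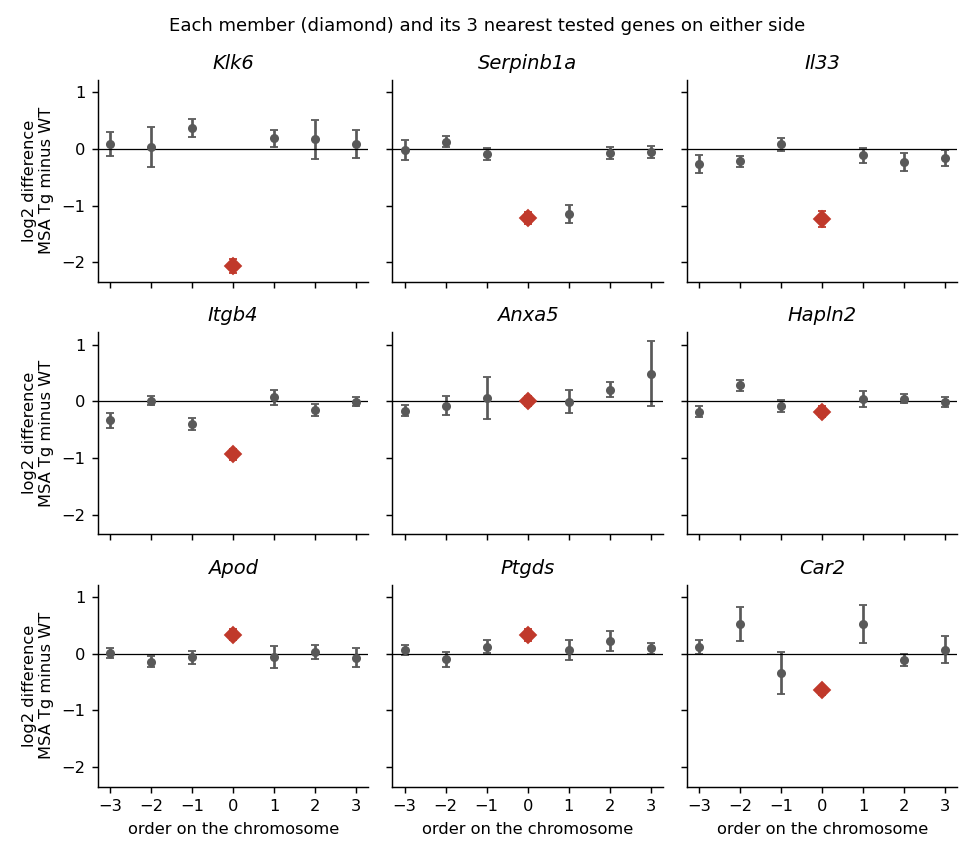
Log2 difference, MSA Tg minus WT, with its SE, of each member (red diamond) and of up to 3 tested genes on either side, placed by their order on the chromosome (horizontal axis, 0 is the member). Serpinb1c, next to Serpinb1a, has the lowest value of the 54 neighbours, and 27 of the 54 lie below 0.

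Across all 9 genes, 54 neighbouring genes were compared and 0 were called, with 4 at an unadjusted p under 0.05 (limma). Their median log2 difference was 0.0041, and 5 of 54, or 9.26%, had every MSA Tg sample below every WT sample, against 7.5% of all genes.

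The common myelin genes had mostly lower means in MSA Tg. Of 18 genes of compact and structural myelin, 16 had a lower mean in MSA Tg and 2 a higher one. Of all genes, 50.1% had a lower mean. The median log2 difference of the 18 was -0.22, against -0.00049 for all genes, and 0 were called. Mog, a protein of the outer myelin surface, had the smallest p, at -0.42 ± 0.09 (adjusted p = 0.366, limma). The 13 oligodendrocyte markers summed to 266.3 to 274.2 in MSA Tg and 306.2 to 364.9 in WT, without overlap. Among them Ugt8a, an enzyme of myelin galactolipid synthesis, stood at -0.73 ± 0.21 (adjusted p = 0.672, limma), below Car2. Markers of oligodendrocyte precursors overlapped, at 8.74 to 10.4 in MSA Tg and 9.08 to 10.1 in WT.

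To set this difference aside, each member was expressed relative to the mean log2 level of the 18 myelin genes on the same array, a scale chosen after the data were seen. That mean itself was lower by 0.20 log2 units in MSA Tg, without overlap. On this scale Klk6 differed by -1.87, Il33 by -1.04, Serpinb1a by -1.02, Itgb4 by -0.74 and Car2 by -0.45, all without overlap. Hapln2 was at 0.02 with overlap. Anxa5, at 0.20, and Apod and Ptgds, at 0.54 and 0.53, were higher in every MSA Tg sample. Relative to the mean of the 13 oligodendrocyte markers the values were -1.93 for Klk6, -0.04 for Hapln2 and 0.14 for Anxa5, the last with overlap. The median of those markers, tried first, gave -2.11 for Klk6 and -0.04 for Anxa5.

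**Figure D3:**
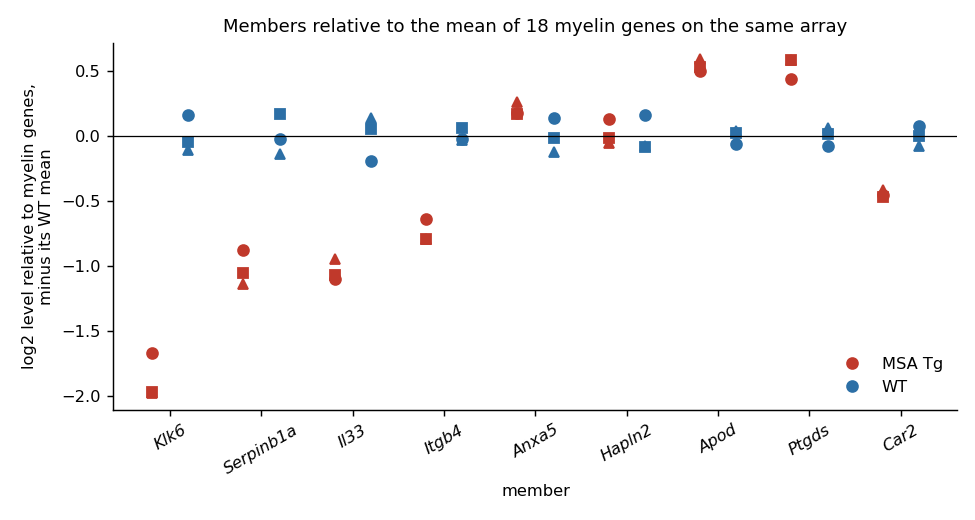
Log2 level of each member relative to the mean of 18 myelin genes on the same array, with the WT mean of each member set to 0 (vertical axis), for MSA Tg arrays (red, left of each pair) and WT arrays (blue). Symbols give replicates 1 to 3. Klk6 differs by -1.87 on average, and Apod and Ptgds lie above their WT samples.

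Other genes that differ between mature oligodendrocyte subtypes had lower means in MSA Tg throughout, with small differences. Of 16 such genes 15 were tested, all 15 had a lower mean in MSA Tg, against 50.1% of all genes, and 0 were called. The median was -0.18, close to that of the myelin genes. Opalin, at -0.20, is in both lists. Pmp22, a myelin protein best known from peripheral nerve, stood at -0.42 ± 0.08 (adjusted p = 0.287), and Slc5a11, an inositol transporter, at -0.77 ± 0.18 (adjusted p = 0.476, limma). Slc5a11 had the lowest value of the list. It lay below Car2, at -0.64, and above Itgb4, Serpinb1a, Il33 and Klk6.

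Genes known to be induced in oligodendrocytes of diseased mouse nervous tissue had mostly higher means in MSA Tg. Of 16 tested, 14 were higher and 2 lower, with a median log2 difference of 0.39, and 0 were called. Of all genes, 50.1% had a lower mean in MSA Tg. Every MSA Tg sample lay above every WT sample for 9 of the 16, against 7.4% of all genes. The smallest p values were those of Il12rb1, a subunit of the interleukin-12 receptor, at 0.91 ± 0.17 (adjusted p = 0.275), and B2m, the light chain of MHC class I, at 0.62 ± 0.14 (adjusted p = 0.446, limma). Several of these genes are also made by microglia and immune cells. The 6 microglial markers summed to 21.5 to 24.1 in MSA Tg and 16.0 to 16.4 in WT, without overlap, and their part in this list's values was not tested.

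None of the 12 lists held a called gene. At an unadjusted p under 0.05 (limma), which 676 of all genes (2.71%) met with a lower and 786 (3.15%) with a higher mean in MSA Tg, the disease-associated list held 0 lower and 9 higher genes. The myelin list held 4 lower and 1 higher, and the other subtype genes 4 lower and 0 higher. The prostaglandin list held 1 lower and 3 higher, the serpin list 1 lower and 2 higher, and the lipocalin list 1 of each. The integrins and the annexins each had 1 higher gene and the carbonic anhydrases 1 lower. The kallikrein, Il33 and nodal matrix lists had 0.

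**Figure D4:**
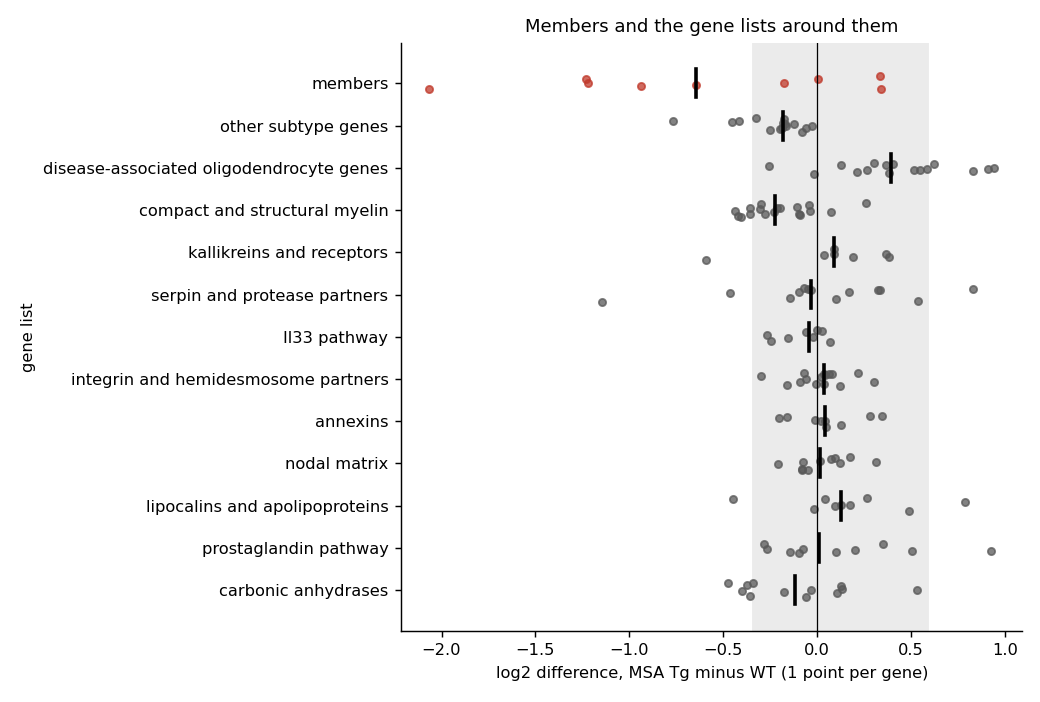
Log2 difference, MSA Tg minus WT, of each tested gene (points) in the members (red) and in 12 gene lists (grey), with the median of each list as a black bar. The grey band spans the 5th to 95th percentile of all genes, -0.34 to 0.59. The members spread from -2.06 to 0.34, while the medians of the 12 lists lie between -0.22 and 0.39.

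Marker sums of 3 other cell types also stood apart between the genotypes. Endothelial markers summed to 15.1 to 16.5 in MSA Tg and 16.6 to 18.9 in WT, a narrow gap. Of these 6 markers only 1, Cldn5 at a log2 difference of -0.42, had every MSA Tg sample below every WT sample. Neuronal markers summed to 314.4 to 319.0 in MSA Tg and 334.2 to 381.6 in WT, and 3 of those 6 had every MSA Tg sample below every WT sample. Astrocyte markers summed to 162.3 to 171.8 in MSA Tg and 172.1 to 189.2 in WT, a narrow gap, with S100b at a log2 difference of -0.17 and Gfap at 0.59. S100b made up most of this sum, with a mean log2 level of 6.98 in WT against 4.34 for Slc1a3, the next highest. It is also in the list of other subtype genes, so the sum is not one of astrocytes alone. Their part in the members' values was not tested.

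Genes with the profile most like that of Klk6 over the 6 arrays were sought among 18095 tested genes with a reference name. Likeness was the root mean square distance between log2 profiles, each centred on its own mean, so that the genotype difference dominates it. The 5 nearest were Slc34a3 at 0.22, A330015K06Rik at 0.27, Vmn1r33 at 0.39, C030029H02Rik at 0.43 and Itgad at 0.43, where a flat profile would stand at 1.04. Slc34a3, a sodium-phosphate cotransporter, had a log2 difference of -1.97 ± 0.23, and Vmn1r33 was well above background on 0 of 3 MSA Tg arrays. Among the members, the nearest to Klk6 were Serpinb1a at 0.44, Il33 at 0.47 and Itgb4 at 0.57, followed by Car2 at 0.72. Hapln2 at 0.94 and Anxa5 at 1.04 were about as far as a flat profile, and Apod and Ptgds, at 1.21 and 1.22, lay beyond it.

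**Figure D5:**
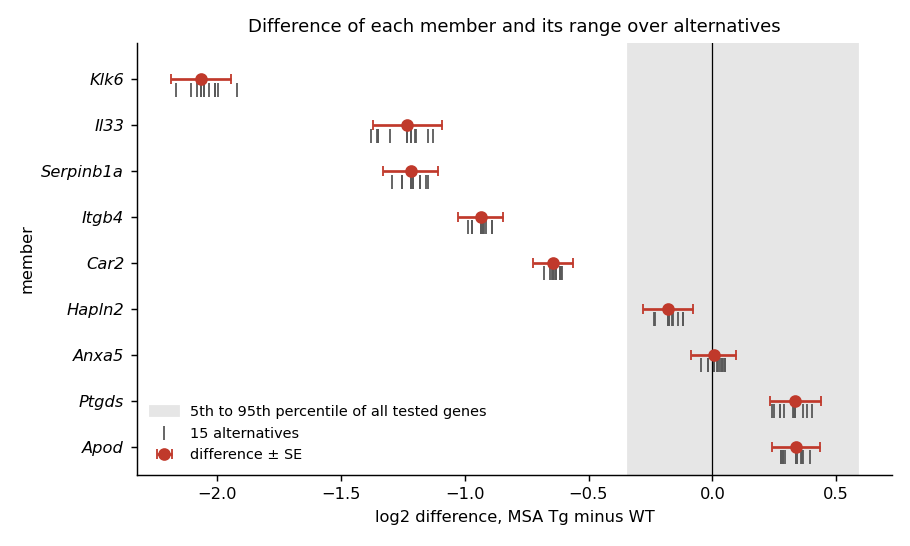
Log2 difference, MSA Tg minus WT, of each member with its SE (red), and its values under 15 other ways of processing or leaving out an array (grey ticks, some of which coincide). The grey band is the 5th to 95th percentile of all tested genes. Klk6, Il33, Serpinb1a, Itgb4 and Car2 lie left of the band, and the other 4 lie inside it under every setting shown.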

How the data were processed

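The authors deposited scanner files of 6 arrays, whose values are linear intensity with the background already subtracted by Feature Extraction 10.7.1.1 (genome build mm9), per the file headers. The submitters' processing notes give version 9.5.1.1. They also deposited a table of intensity values, used as an alternative. At least 99.93% of its values in each column equalled a quantile normalization of the scanner signals within 0.01 log2. Its column medians were 59.9.

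For each array, log2 of the processed signal minus log2 of the 75th percentile over probes was taken. Control spots and 39 to 84 outlier spots per array were left out, none was saturated, and repeated spots were averaged per probe. RefSeq gave names through the accession for 32994 of 56605 probes, through the symbol for 10224 and through a synonym for 520, and 12867 kept the file's name. A probe was tested (38463 were) where all arrays of either genotype read it well above background, and the probe with the highest mean level stood for its gene (24932). Genotypes were compared with limma 3.58.1 in R 4.3.3 (lmFit and eBayes), with Benjamini-Hochberg adjustment over all genes. The steps were tested on simulated data. SEs of second probes come from the same fit over probes.

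The members and lists were chosen with earlier results of these data known. Besides all members, the text names by rule the 2 genes of each list with the smallest p, the nearest neighbours on either side and the 5 profiles nearest to Klk6. Some genes that the rule takes are not reported here. Further genes of the lists and the tissue genes were named after their values were seen. Replicate numbers follow the order of deposit and were not used as pairs. Since the labels do not state that each sample is its own animal, p-values reflect sample-to-sample spread that may be technical, and with 3 arrays per genotype their number limits the precision. Alternatives were another background correction, normalization, filter, probe rule and variance model, slide as a block, array weights and leaving out each array.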

Additional observations from a re-analysis of the deposited data

How the results depend on the processing

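The number of genes called over the whole array depended on the processing. It was 11 as reported, 29 with normexp background correction, 6 without a filter on dim probes, 23 with only probes well above background on all arrays, 7 with slide as a block, 24 when the probes of each gene were averaged, 27 with an intensity trend, 95 with array weights and 1462 at an unadjusted p under 0.05. Leaving out 1 array gave 0 to 7 calls: 0 without MSA Tg replicate 2, where 1193 genes had an unadjusted p under 0.05 (limma), 1 without MSA Tg replicate 1 or WT replicate 3, 4 without MSA Tg replicate 3 or WT replicate 2, and 7 without WT replicate 1. Klk6 was called under these ways of processing and under quantile normalization and the authors' table, but not when an array other than WT replicate 1 was left out. Serpinb1a, Il33, Itgb4 and Car2 were called as well under normexp, the intensity trend and array weights, Serpinb1a and Itgb4 under the stricter filter, and Serpinb1a and Il33 with averaged probes.

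Of 135 member values under the 15 alternatives, 34 could not differ from the reported ones (both filters, the intensity trend, and averaging for genes with 1 tested probe), and the 9 with slide as a block repeat those without WT replicate 1. Of the other 92, 89 kept their sign, and the remaining 3 were those of Anxa5, which lay between -0.04 and 0.05. Klk6 lay between -2.17 and -1.92, the smallest under normexp. Each list median moved by less than the spread between replicates, but 7 of 12, all near 0, took the opposite sign under an alternative. These were the kallikrein list (0.09 as reported, -0.11 without a filter and 0.30 without WT replicate 2) and the serpin, Il33, integrin, annexin, nodal matrix and prostaglandin lists. The other 5, the myelin, other subtype and disease-associated lists among them, kept their sign. No paired analysis was run because the labels share no replicate number between genotypes. The title number of every MSA Tg sample is consecutive with that of a WT sample, and no label says that these mark pairs. A pairing by title number was not tested.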
